A study of Homo sapiens with 12 samples.

Results

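The comparison sets mRNA of HEK293T cells null for GIGYF1 and GIGYF2 (GIGYF1/2-null) against mRNA of HEK293T cells null for 4EHP (4EHP-null). It was chosen by genotype label and assay, and its members are 4 of the 12 libraries of the series, 2 of each knockout, over all genes that passed a low-count filter. HEK293T is a human embryonic kidney line. Wild-type (WT) HEK293T cells, with 2 mRNA libraries, were used to place each knockout and to share 1 estimate of the spread, and ribosome footprints (Ribo-seq) of the same 3 genotypes, 6 libraries, served as a second readout. All cells were untreated and were harvested 24 h after plating in 15 cm dishes. The libraries are labelled as biological replicates, without stating if each came from its own culture or clone or how the knockouts were made, so a p-value here reflects only how far the libraries of 1 genotype differed, which may be technical.

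4EHP, encoded by EIF4E2, is a relative of the cap-binding factor eIF4E that binds the mRNA cap without recruiting eIF4G. GIGYF1 and GIGYF2 are large scaffold proteins that bind 4EHP and bring it to mRNAs through partners such as tristetraprolin, the microRNA machinery and ribosome collision sensors. The complex represses translation of the bound mRNA, and GIGYF proteins can also recruit decay factors without 4EHP. Setting the 2 knockouts against each other asks where the mRNA content of cells differs between these genotype labels. The labels do not say how many clones stand for each genotype, so genotype cannot be separated from cell line or clone. Whether a difference came from the lost part of the complex was not tested.

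Levels are CPM, that is counts corrected for library size after TMM normalization, given for both libraries of a genotype in the order replicate 1 and replicate 2. A difference is GIGYF1/2-null minus 4EHP-null on the log2 scale ± its standard error with 2 libraries per genotype. Adjusted p-values are Benjamini-Hochberg values of edgeR's quasi-likelihood test over all genes tested, and a gene was called when its value was under 0.05. The mRNA libraries of the knockouts held 26143118 to 33594170 counts and the footprint libraries of all genotypes 6536493 to 10816080. All 8 genes taken as marks of HEK293T were expressed, with summed levels of 885 to 1030 CPM in 4EHP-null and 1050 to 1320 CPM in GIGYF1/2-null cells. Summed markers of leukocytes, endothelium, fibroblasts, hepatocytes and muscle stayed at or under 12.8 CPM in the knockouts, and PTPRC and MYH7 had no count in any library. In bulk RNA, fewer cells expressing a gene and less RNA per cell cannot be told apart.

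Of 15637 genes tested among 27011, 3820 differed between the knockouts (24.4%). GIGYF1/2-null cells had the higher level for 1788 of them (11.4% of tested genes) and the lower level for 2032 (13%), so that 46.8% of the calls were higher. With upper-quartile scaling the split became 2298 higher and 1616 lower (58.7% higher). The median size of a called difference was 0.55 on the log2 scale, while the median over all tested genes was 0.0024. Called differences of at least 2-fold numbered 487 higher and 252 lower (4.73% of tested genes together), and those of at least 4-fold 183 and 45. Past these folds more genes were higher in GIGYF1/2-null cells than lower. The 2 libraries of one knockout did not overlap with those of the other for 3812 of the 3820 called genes, against 62.4% of all tested genes. Leaving out replicate 1 of 4EHP-null cells gave 2426 calls, leaving out replicate 2 gave 2238, and leaving out GIGYF1/2-null replicate 2 gave 2414.

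**Figure D1:**
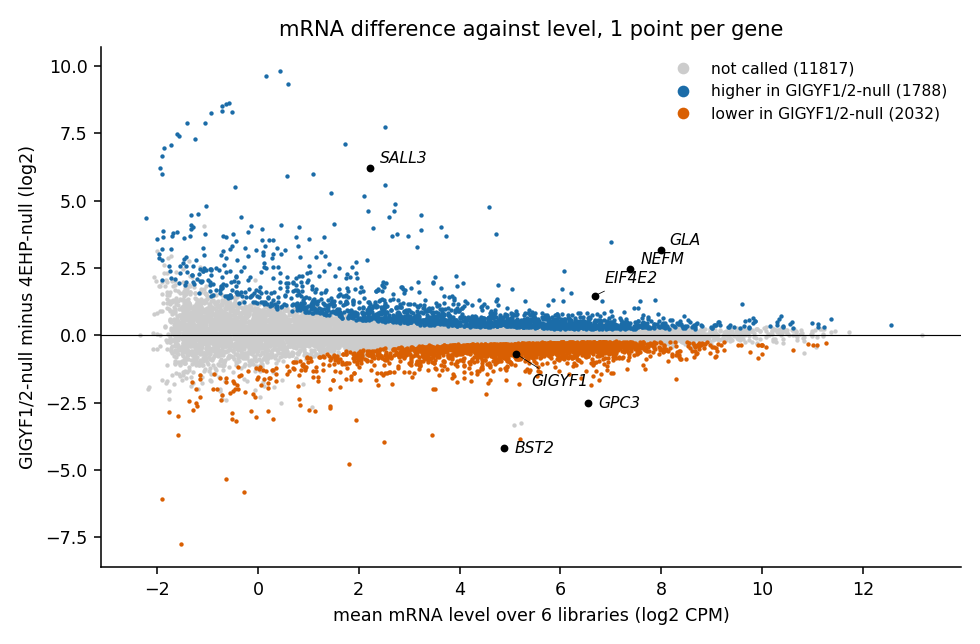
Difference in mRNA between the knockouts (GIGYF1/2-null minus 4EHP-null, log2) against the mean level over the 6 mRNA libraries (log2 CPM), 1 point per tested gene. The 1788 genes called higher and 2032 called lower in GIGYF1/2-null cells are coloured, and named genes are in black: SALL3 lies near the top and BST2 and GPC3 near the bottom.

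The targeted genes came first. EIF4E2 stood at 51.0 and 46.7 CPM in the 4EHP-null libraries, at 131 and 137 CPM in the GIGYF1/2-null libraries and at 123 and 123 CPM in WT. It was lower in both 4EHP-null libraries than in any other library, and the difference of 1.46 ± 0.08 was called (edgeR adjusted p = 2.0e-07). GIGYF1 stood at 38.9 and 39.3 CPM in 4EHP-null and 22.4 and 26.0 CPM in GIGYF1/2-null libraries, a difference of -0.69 ± 0.11 (edgeR adjusted p = 0.00062). The loss of GIGYF1 mRNA was thus partial, and the gene also lies in a stretch of chromosome 7 whose neighbours were lower in GIGYF1/2-null cells. GIGYF2 went the other way, with 68.0 and 68.8 CPM in 4EHP-null, 96.7 and 81.8 CPM in GIGYF1/2-null and 81.2 and 66.1 CPM in WT libraries. Its difference of 0.38 ± 0.11 (edgeR adjusted p = 0.022) was not called without either 4EHP-null replicate or without GIGYF1/2-null replicate 1. GIGYF2 counts do not show the labelled loss. A gene count does not distinguish edited from intact transcripts. The label GIGYF1/2-null is used as given.

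Of 15 listed genes of the complex and its partners, all tested, 3 were called higher and 3 lower (40%, against 24.4% of all genes), the 3 targeted genes included. Of the 12 others, 3 were called, a share near that of all genes. These were PRRC2C, a large protein of stress granules and translation, and TNRC6B, a scaffold of the microRNA machinery, both lower, and EDF1, which binds collided ribosomes, higher. PRRC2C fell from 256 and 298 CPM to 179 and 149 CPM, with no overlap, by 0.76 on the log2 scale (edgeR adjusted p = 0.00025). The call of TNRC6B (-0.33 ± 0.09) was lost without 4EHP-null replicate 2, without either GIGYF1/2-null replicate and with upper-quartile scaling. The call of EDF1 (0.25 ± 0.08) was lost in 7 of 16 alternatives, among them the fits without either 4EHP-null replicate, either WT replicate or GIGYF1/2-null replicate 2. ZFP36, which encodes tristetraprolin, and ZNF598, which senses collided ribosomes, were not called.

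Among genes with a mean of at least 2 on the log2 CPM scale, those with the largest higher level in GIGYF1/2-null cells were nearly silent in 4EHP-null cells. SALL3, a developmental zinc finger repressor, had 0.0306 and 0.152 CPM in 4EHP-null libraries, or 1 and 4 counts, and 6.90 and 6.20 CPM in GIGYF1/2-null libraries. Its WT level, 7.46 and 6.51 CPM, lay with GIGYF1/2-null. The ratio of summed counts was 77.1 (95% counting interval 32.8 to 239). CHRDL1, a secreted BMP antagonist, had 0.428 and 0.114 CPM in 4EHP-null and 13.9 and 13.7 CPM in GIGYF1/2-null libraries, a ratio of 47.9 (29.7 to 82.5). SPOCK1, a secreted proteoglycan, had 0.795 and 0.0762 CPM in 4EHP-null and 13.5 and 14.4 CPM in GIGYF1/2-null libraries, a ratio of 29.4 (20.2 to 44.5). For both, WT lay between the knockouts, and CHRDL1 ends a run of higher neighbours on the X chromosome. These intervals cover counting error only.

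NELL2, a secreted glycoprotein of neurons, stood at 1.96 and 1.30 CPM in 4EHP-null, 26.9 and 23.3 CPM in WT and 45.1 and 44.1 CPM in GIGYF1/2-null libraries. The libraries of the 3 genotypes did not overlap, and the difference between the knockouts was 4.75 ± 0.17 (edgeR adjusted p = 3.0e-09). SFRP1, a secreted Wnt inhibitor, stood at 0.672 and 0.686 CPM in 4EHP-null and 14.7 and 15.6 CPM in GIGYF1/2-null libraries, with a difference of 4.47 ± 0.18 and with WT at 11.5 and 12.1 CPM. NRXN3, a presynaptic adhesion protein, stood at 0.306 and 0.305 CPM and 6.96 and 8.07 CPM in the same order of knockouts, and FBXL16, an F-box protein, at 1.34 and 1.03 CPM and 20.6 and 18.4 CPM. SFRP1 and FBXL16 were not called between GIGYF1/2-null and WT, while both were called lower in 4EHP-null than in WT. SLC5A5, the iodide transporter, and ENPP2, which encodes autotaxin, had another placement, with WT nearer to 4EHP-null on the log2 scale. ENPP2 stood at 1.56 and 1.56 CPM in WT, 0.52 and 0.991 CPM in 4EHP-null and 10.2 and 13.4 CPM in GIGYF1/2-null libraries. TRIM58, a ubiquitin ligase, and BEX5 were also among the 12 genes with the largest higher level, at 4.37 ± 0.28 and 3.92 ± 0.20. The 11 named here kept their call and direction in each alternative run.

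**Figure D2:**
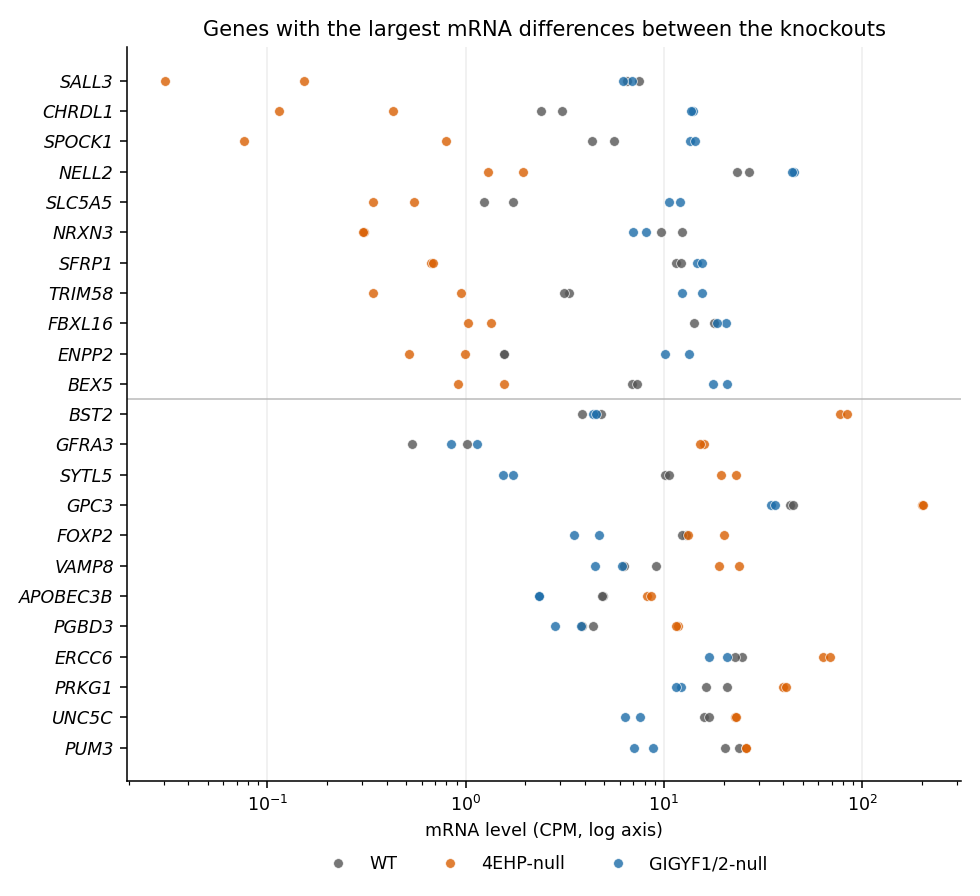
mRNA level (CPM, log axis) in each of the 6 libraries for 11 of the 12 genes with the largest higher level and, under the line, the 12 with the largest lower level in GIGYF1/2-null than in 4EHP-null cells. Grey points are WT, orange 4EHP-null and blue GIGYF1/2-null, and in every row the blue and orange points are separate.

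At the other end, with the same minimum level, the gene with the largest lower level was BST2, which encodes tetherin, an interferon-induced protein that holds budding virions on the cell surface. BST2 stood at 77.4 and 84.0 CPM in 4EHP-null and 4.40 and 4.56 CPM in GIGYF1/2-null libraries, a difference of -4.17 ± 0.13 (edgeR adjusted p = 1.7e-09). WT stood at 4.81 and 3.87 CPM, together with GIGYF1/2-null. GFRA3, a receptor for the GDNF family ligand artemin, had the same pattern, with 16.0 and 15.2 CPM in 4EHP-null, 1.14 and 0.848 CPM in GIGYF1/2-null and 1.02 and 0.538 CPM in WT libraries. GPC3, a cell surface heparan sulfate proteoglycan, stood at 200.3 and 203 CPM in 4EHP-null and 34.7 and 36.3 CPM in GIGYF1/2-null libraries, a difference of -2.51 ± 0.08 (edgeR adjusted p = 1.7e-09). GPC3 and GFRA3 were both called higher in 4EHP-null than in WT.

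SYTL5, a vesicle trafficking protein, stood at 19.3 and 23.1 CPM in 4EHP-null, 10.1 and 10.6 CPM in WT and 1.55 and 1.73 CPM in GIGYF1/2-null libraries, a difference of -3.69 ± 0.16 between the knockouts. WT lay between them without overlap. APOBEC3B, a cytidine deaminase with close paralogs that could share reads, stood at 8.22 and 8.61 CPM in 4EHP-null, 4.91 and 4.89 CPM in WT and 2.34 and 2.34 CPM in GIGYF1/2-null libraries. VAMP8, a SNARE protein of vesicle fusion, stood at 18.9 and 23.8 CPM in 4EHP-null and 4.49 and 6.14 CPM in GIGYF1/2-null libraries. FOXP2, a forkhead transcription factor in the chromosome 7 run, differed by -2.01 ± 0.20. ERCC6, which acts in transcription-coupled repair, PGBD3, which lies within ERCC6 and can share its reads, and PRKG1, a cGMP-dependent kinase, lay in 1 run of neighbours on chromosome 10. That run was mixed, with 28 of its 56 genes called lower and 17 called higher. ERCC6 stood at 63.1 and 68.4 CPM in 4EHP-null and 20.7 and 16.9 CPM in GIGYF1/2-null libraries, with WT at 24.9 and 22.7 CPM. UNC5C, a netrin receptor, and PUM3, a nucleolar RNA-binding protein, differed by -1.72 ± 0.12 and -1.71 ± 0.13 and also lay in runs, on chromosomes 4 and 9. These 12 genes likewise kept their call and direction in each alternative run.

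Placed against WT, calls higher in GIGYF1/2-null cells came from both sides. Of the 1788 genes, 649 differed from WT only in 4EHP-null and 332 only in GIGYF1/2-null by the test, 68 differed in opposite directions, 33 in the same direction, and 706 in neither. The mean of WT lay between those of the knockouts for 1276 of them. Of the 2032 genes lower in GIGYF1/2-null cells, 491 differed from WT only in 4EHP-null, 713 only in GIGYF1/2-null, 47 in opposite directions, 31 in the same direction and 750 in neither, with WT between the knockouts for 1430. Both comparisons with WT share the same WT libraries. In 4EHP-null cells 2048 genes were called against WT (13.1%), 6.47% of tested genes higher and 6.63% lower. In GIGYF1/2-null cells 1868 were called (11.9%), 5.2% higher and 6.75% lower.

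For 115 genes in all, both knockouts were called against WT and in opposite directions. GLA, the lysosomal alpha-galactosidase, stood at 56.2 and 53.5 CPM in 4EHP-null, 218 and 229.9 CPM in WT and 452 and 526 CPM in GIGYF1/2-null libraries. Its difference between the knockouts was 3.16 ± 0.10 (edgeR adjusted p = 1.7e-09), made up of -2.03 ± 0.09 in 4EHP-null and 1.13 ± 0.09 in GIGYF1/2-null against WT. GLA overlaps a read-through transcript of RPL36A and HNRNPH2 on the other strand, and the sources used here do not give whether counting used strand. SATB1, a chromatin organizer, stood at 1.77 and 1.68 CPM, 15.7 and 14.1 CPM and 23.9 and 21.0 CPM in the same order of genotypes. DIAPH3, a formin that nucleates actin filaments, went the other way, with 44.1 and 45.9 CPM in 4EHP-null, 35.3 and 29.1 CPM in WT and 14.9 and 13.6 CPM in GIGYF1/2-null libraries. DIAPH3 lies in a chromosome 13 run. CHRDL1, SPOCK1, NELL2, SLC5A5, TRIM58, ENPP2 and BEX5 among the higher genes and SYTL5, GPC3, APOBEC3B, PRKG1 and UNC5C among the lower ones had the same kind of placement.

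The gene lists that follow are described by the share of tested members called, to be read against 24.4% of all genes (11.4% higher and 13% lower). These lists, and that of the complex above, were chosen with earlier results of these data known. Their shares are therefore a description and not a test. The share of all genes also depends on the fit. With a stricter low-count filter, 3848 of 13764 genes were called. With edgeR's glmTreat, which required a fold over 1.2, 1727 of 15637 were called. Leaving out either 4EHP-null replicate or GIGYF1/2-null replicate 2 lowered the number called over all genes. Leaving out GIGYF1/2-null replicate 1 changed it little. A list's count in any such fit is therefore not to be read against 24.4%. Genes of the translation machinery were called in both directions. Of 84 cytosolic ribosomal protein genes tested, 21 were higher in GIGYF1/2-null cells, 3 were lower and 60 were not called, with a median of 0.21 against 0.0024 over all genes. The share called was 28.6%, and this count depended on the fit: the higher members numbered 9 without either 4EHP-null replicate, 10 without GIGYF1/2-null replicate 2, 52 without GIGYF1/2-null replicate 1, 32 with upper-quartile scaling and 40 without a low-count filter. None to 3 were lower in the fits without 1 knockout library, and the median was 0.11 without GIGYF1/2-null replicate 2 and 0.32 without replicate 1. With glmTreat, 4 of the 84 were higher and none lower. Against WT the median of the list was -0.35 in 4EHP-null and -0.14 in GIGYF1/2-null cells. RPL22L1, a paralog of RPL22, stood at 129 and 138 CPM in 4EHP-null, 121 and 113 CPM in WT and 297 and 352 CPM in GIGYF1/2-null libraries, a difference of 1.28 ± 0.09 (edgeR adjusted p = 1.9e-06). RPL36A stood at 879 and 915 CPM in 4EHP-null and 1274 and 1478 CPM in GIGYF1/2-null libraries, with WT at 1539 and 1641 CPM. RPL22L1 was higher than WT in GIGYF1/2-null, while RPL36A and RPL39L were lower than WT in 4EHP-null. Ribosomal protein genes have many processed copies, so how reads were shared among them is uncertain.

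Mitochondrial ribosomal proteins had 24 higher and 3 lower of 78 tested (34.6%), with a median of 0.17, and 9 of the 27 calls lay in runs of neighbours. MRPS16 stood at 155 and 154 CPM in 4EHP-null, 240.2 and 250.4 CPM in GIGYF1/2-null and 236 and 247 CPM in WT libraries, and lay in a run on chromosome 10. MRPS31 stood at 33.5 and 31.6 CPM and 18.2 and 13.1 CPM in the knockouts, and lay in a run on chromosome 13. With glmTreat, 6 of the 78 list members were higher and 2 lower. The higher members fell to 8 without either 4EHP-null replicate and 9 without GIGYF1/2-null replicate 2. Nuclear-encoded genes of oxidative phosphorylation had 9 higher and 5 lower of 48 (29.2%), with a median of 0.18, among them COX5A, a subunit of cytochrome c oxidase, at 146 and 149 CPM and 219 and 245 CPM in a chromosome 15 run. Without 4EHP-null replicate 1 or GIGYF1/2-null replicate 2, their higher members numbered 2 and their lower members 3, and without GIGYF1/2-null replicate 1 there were 23 higher. Only 1 was lower when 4EHP-null replicate 2 was left out. The median was 0.06 without GIGYF1/2-null replicate 2 and 0.28 without replicate 1. Upper-quartile scaling gave 15 higher members, and the fit without a low-count filter 17. With glmTreat, 2 of the 48 were higher and none lower.

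Among 45 genes of cap binding and initiation, 3 were higher and 6 lower (20%), with 6 higher under upper-quartile scaling. EIF5B, which joins the ribosomal subunits, stood at 56.4 and 67.9 CPM in 4EHP-null and 38.2 and 30.4 CPM in GIGYF1/2-null libraries, with WT at 37.7 and 32.5 CPM. EIF4G1, the scaffold of the eIF4F complex, stood at 556 and 509 CPM and 383 and 284 CPM, and its relative EIF4G3 at 120.2 and 111 CPM and 80.2 and 60.3 CPM. All 3 were lower in GIGYF1/2-null cells without overlap, with differences of -0.86 ± 0.13, -0.68 ± 0.12 and -0.72 ± 0.14. EIF4EBP2, which binds eIF4E, was higher by 0.48 ± 0.08 and lay in a run on chromosome 10.

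Factors of mRNA decay and ribosome rescue followed. Deadenylation, decapping and 5′ decay factors had 4 higher and 7 lower of 40 (27.5%, near the share of all genes), among the lower CNOT3, a subunit of the CCR4-NOT deadenylase, at -0.50 ± 0.10, and EIF4ENIF1, which encodes the 4E-T protein, at -0.47 ± 0.10. Without 1 knockout library at a time, 0 to 4 were higher and 3 to 5 lower, and CNOT3 was not called without 4EHP-null replicate 1. Ribosome collision and quality control genes had 2 higher and 9 lower of 28 (39.3%), with a median of -0.16. VCP, the ATPase that extracts ubiquitinated proteins, stood at 429.7 and 416 CPM in 4EHP-null and 264 and 192 CPM in GIGYF1/2-null libraries, a difference of -0.89 ± 0.12 (edgeR adjusted p = 0.00027). The lower members numbered 2 without 4EHP-null replicate 2, 3 without GIGYF1/2-null replicate 2 and 5 without 4EHP-null replicate 1, and 1 was higher in each of these fits. The median was -0.10 with upper-quartile scaling. With glmTreat, 1 of the 28 was higher and 2 were lower. Nonsense-mediated decay genes had 1 higher and 4 lower of 18 (27.8%, near the share of all genes), led by UPF1, its central helicase, at 131 and 115 CPM and 90.8 and 76.0 CPM. Without 4EHP-null replicate 1 or GIGYF1/2-null replicate 2, 2 were lower and none higher. The microRNA pathway had 1 higher and 1 lower of 13 (15.4%), and neither direction had a call without 4EHP-null replicate 2.

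The integrated stress response is the programme by which phosphorylation of eIF2 raises translation of ATF4, a transcription factor for genes of amino acid supply. Of its 42 tested genes, 24 were lower in GIGYF1/2-null cells and none was higher (57.1% called, against 24.4% of all genes), with a median of -0.40. Between 18 and 24 were lower in the fits that left out 1 library. The median against WT was 0.22 in 4EHP-null and -0.20 in GIGYF1/2-null cells, so the list lay on either side of WT. SLC7A1, the cationic amino acid transporter, stood at 256 and 260.1 CPM in 4EHP-null, 225 and 234 CPM in WT and 141 and 136 CPM in GIGYF1/2-null libraries. Its difference of -0.90 ± 0.08 was called (edgeR adjusted p = 6.3e-06), and it lies in the chromosome 13 run. NUPR1, a stress-induced chromatin protein, stood at 5.41 and 4.61 CPM, 2.61 and 1.91 CPM and 0.886 and 0.672 CPM in the same order. MTHFD1L, of mitochondrial one-carbon metabolism, stood at 111 and 111 CPM in 4EHP-null and 67.1 and 61.5 CPM in GIGYF1/2-null libraries, in a chromosome 6 run. ATF3 and SESN2, both stress-induced, differed by -0.72 ± 0.12 and -0.82 ± 0.11 outside any run. In all, 18 of the 24 calls lay outside runs of neighbours. With glmTreat, 15 of the 42 genes were lower and none higher. ATF4 mRNA itself was not called (0.06 ± 0.13), nor was DDIT3 (-0.37 ± 0.22).

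Aminoacyl-tRNA synthetases charge tRNAs and include known ATF4 targets. Of 20 tested, 11 were lower and none higher (55%), with a median of -0.30, and all 11 calls lay outside runs. With glmTreat, 2 of the 20 were called, both lower, against 1727 of 15637 genes. VARS stood at 225 and 203 CPM in 4EHP-null, 140.1 and 138 CPM in WT and 159 and 141 CPM in GIGYF1/2-null libraries. LARS stood at 245 and 237 CPM, 245 and 209 CPM and 179 and 144 CPM in the same order. VARS was higher than WT in 4EHP-null and LARS lower than WT in GIGYF1/2-null by the test. The count of lower members was 4 without 4EHP-null replicate 2, 5 without GIGYF1/2-null replicate 2 and 7 without 4EHP-null replicate 1. The median was -0.20 without GIGYF1/2-null replicate 2.

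ATF4 acts through a composite element in promoters. The letters TGATGCAA or TGATGAAA were searched on both strands of the 250 bases before each gene's start, in RefSeq promoters of GRCh38.p14. They occurred in 3 of the 33 integrated stress response genes with a promoter in the table (9.09%) and in 2 of 12 synthetases (16.7%), against 1.72% of 27305 promoters. The windows around the matches are shown because they are the only promoters of both lists that hold these letters, with the match in capitals and each read 5′ to 3′ along its gene. A match is a description of these letters and not a binding site.
ASNS, asparagine synthetase, chr7:97872444-97872501, minus strand: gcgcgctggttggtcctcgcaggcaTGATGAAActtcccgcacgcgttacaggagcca
CHAC1, glutathione cyclotransferase, chr15:40953237-40953294, plus strand: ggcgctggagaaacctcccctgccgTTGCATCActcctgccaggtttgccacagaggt
MTHFD1L, chr6:150866332-150866389, plus strand: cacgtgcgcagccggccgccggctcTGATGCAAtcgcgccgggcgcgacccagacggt
AARS, alanyl-tRNA synthetase, chr16:70289661-70289718, minus strand: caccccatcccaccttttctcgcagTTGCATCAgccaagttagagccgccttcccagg
IARS, isoleucyl-tRNA synthetase, chr9:92293698-92293735, minus strand: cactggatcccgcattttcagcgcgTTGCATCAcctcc
Of these 5 genes, chosen by their sequence, the first 4 were called lower in GIGYF1/2-null cells. ASNS stood at 228 and 216 CPM in 4EHP-null and 153 and 122 CPM in GIGYF1/2-null libraries, and CHAC1 at 6.36 and 14.9 CPM and 3.29 and 4.88 CPM. MTHFD1L is given above. AARS stood at 134 and 139 CPM and 119 and 94.8 CPM, while IARS was not called (0.07 ± 0.08). Of the 18 called integrated stress response genes with a listed promoter, 3 held a match, and of 5 such synthetases 1 did. Among the members not called, 0 integrated stress response genes and 1 synthetase held a match. These counts are too small to say if a match goes with a call.

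Other stress and sterol genes were lower in part. The unfolded protein response had 8 lower and none higher of 26 (30.8%, against 24.4% of all genes). The lower members numbered 5 without either 4EHP-null replicate or with upper-quartile scaling, and 2 members were higher without GIGYF1/2-null replicate 1. HYOU1, a chaperone of the endoplasmic reticulum, differed by -0.50 ± 0.08 outside runs. Heat shock chaperones had 5 lower and 2 higher of 18 (38.9%), with a median of -0.31. The lower members numbered 3 without 4EHP-null replicate 1, 12 without GIGYF1/2-null replicate 1 and 11 without a low-count filter. No member was higher without 4EHP-null replicate 2 or GIGYF1/2-null replicate 1, and 1 was higher without 4EHP-null replicate 1. The median was -0.15 without GIGYF1/2-null replicate 2 and -0.56 without replicate 1. HSPH1, a partner of HSP70, stood at 286 and 240.2 CPM in 4EHP-null and 156 and 89.3 CPM in GIGYF1/2-null libraries, in the chromosome 13 run. HSPA1A, whose reads can be shared with the near-identical HSPA1B, stood at 0.275 and 0.267 CPM in 4EHP-null and 19.5 and 0.205 CPM in GIGYF1/2-null libraries. Its call rested on GIGYF1/2-null replicate 1, without which the difference was -0.41. Cholesterol synthesis had 7 lower and none higher of 24 (29.2%), with a median of -0.20. Over all genes 24.4% were called and 13% were lower. Of the 7, 6 were called against WT in GIGYF1/2-null only. With glmTreat, 2 of the 24 cholesterol genes were lower. Without 4EHP-null replicate 2, 4 were lower. HMGCS1, which makes the precursor of mevalonate, stood at 143 and 157 CPM in 4EHP-null, 130.1 and 136 CPM in WT and 85.8 and 82.0 CPM in GIGYF1/2-null libraries. Of 18 targets of NRF2, the oxidative stress factor, 3 were higher and 1 lower (22.2%), with 5 lower without GIGYF1/2-null replicate 1. They were led by HMOX1, heme oxygenase 1, at 33.4 and 41.2 CPM in 4EHP-null, 31.6 and 38.5 CPM in WT and 113 and 132 CPM in GIGYF1/2-null libraries.

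**Figure D3:**
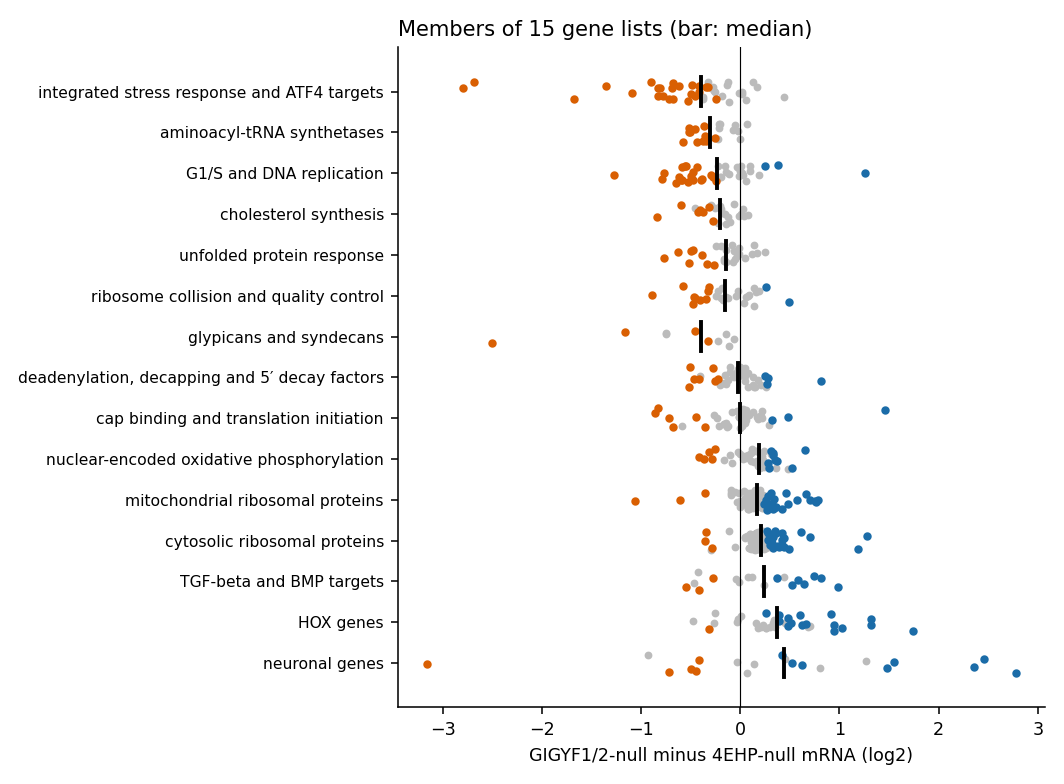
Difference in mRNA between the knockouts (GIGYF1/2-null minus 4EHP-null, log2) for the tested members of 15 gene lists, 1 point per gene, with the list median as a bar. Blue points are called higher, orange called lower and grey not called: the integrated stress response and synthetase lists hold no blue point, and their medians are -0.40 and -0.30.

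Genes of the G1/S transition and DNA replication were lower in GIGYF1/2-null cells in 20 of 40 cases and higher in 3 (57.5% called), with a median of -0.24. The lower members numbered 16 to 19 in the fits without 1 knockout library, and 16 of the 20 lay outside runs. Without 4EHP-null replicate 1, 1 member was higher. MCM2, a subunit of the replicative helicase, stood at 198 and 171 CPM in 4EHP-null, 103 and 102 CPM in WT and 83.7 and 69.2 CPM in GIGYF1/2-null libraries. It differed by -1.27 ± 0.10 (edgeR adjusted p = 4.0e-06), was higher than WT in 4EHP-null and lower than WT in GIGYF1/2-null cells. POLA1, the catalytic subunit of DNA polymerase alpha, stood at 73.0 and 73.7 CPM and 46.1 and 39.8 CPM in the knockouts, and its partner POLA2 at 123 and 128 CPM and 86.4 and 77.8 CPM. CCND1, which encodes cyclin D1, went the other way, from 43.1 and 45.9 CPM in 4EHP-null to 108 and 104 CPM in GIGYF1/2-null libraries, with WT at 46.3 and 49.4 CPM. E2F1 and CCNE1 were not called. With glmTreat, 12 of the 40 genes were lower and 1 higher. Genes of G2/M and mitosis had 3 higher and 7 lower of 32 (31.2%), with 3 lower without 4EHP-null replicate 2 or GIGYF1/2-null replicate 2 and 12 lower without GIGYF1/2-null replicate 1.

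Replication genes are classical targets of E2F factors, so the letters TTTGGCGC or TTTCGCGC were searched in the same windows on both strands. They occurred in 6 of 33 promoters of the list (18.2%), against 0.996% of all 27305. The holders, chosen by their sequence, were MCM6, MCM7, POLA1, POLA2, POLE and E2F1. For all 6, the window around the first match is shown, with matches in capitals.
MCM6, chr2:135876563-135876620, minus strand: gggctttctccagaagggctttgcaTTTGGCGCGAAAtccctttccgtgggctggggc
MCM7, chr7:100101398-100101431, minus strand: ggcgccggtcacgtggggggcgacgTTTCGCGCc
POLA1, chrX:24693756-24693813, plus strand: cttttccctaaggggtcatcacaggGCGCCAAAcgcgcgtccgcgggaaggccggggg
POLA2, chr11:65261884-65261941, plus strand: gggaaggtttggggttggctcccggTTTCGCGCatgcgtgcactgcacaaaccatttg
POLE, chr12:132687343-132687385, minus strand: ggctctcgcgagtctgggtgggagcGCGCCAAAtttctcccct
E2F1, chr20:33686386-33686430, minus strand: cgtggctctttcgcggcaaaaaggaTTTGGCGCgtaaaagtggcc
The capitals in MCM6 hold overlapping matches to both motifs, on opposite strands. Its promoter held 4 matches in all, and those beyond the window are not shown. MCM6 stood at 229.6 and 235 CPM in 4EHP-null and 187 and 147 CPM in GIGYF1/2-null libraries, and MCM7 at 441 and 461 CPM and 324 and 277 CPM in a chromosome 7 run. POLE, the catalytic subunit of polymerase epsilon, differed by -0.40 ± 0.08 in a chromosome 12 run, and E2F1 was not called. Of the 19 called list members with a listed promoter, 5 held a match, and of those not called 1 did. These counts are too small to say if a match goes with a call. As above, a match is a description of letters and not a binding site. The 27305 promoters are those of all genes in the RefSeq table, tested here or not.

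HOX genes, which pattern the body axis, had 16 higher and 1 lower of 36 tested (47.2%), with a median of 0.37. Of the 16, 14 were called against WT in 4EHP-null only. The higher members numbered 10 without 4EHP-null replicate 2 and 11 without GIGYF1/2-null replicate 2. The HOXB cluster on chromosome 17 led, with 8 of its 9 tested genes higher and a median of 0.91, and 8 of the 9 lie in a run. HOXB5 stood at 5.01 and 4.08 CPM in 4EHP-null, 17.6 and 15.8 CPM in WT and 16.4 and 14.2 CPM in GIGYF1/2-null libraries, a difference of 1.74 ± 0.15 (edgeR adjusted p = 6.2e-06). HOXB6 stood at 30.0 and 28.3 CPM, 67.8 and 72.4 CPM and 75.1 and 70.8 CPM, and HOXB9 at 114 and 104 CPM, 206 and 192 CPM and 229.8 and 215 CPM, so that GIGYF1/2-null lay with WT for all 3. The HOXC and HOXD clusters, outside any run, had 3 of 8 higher each, with medians of 0.40 and 0.42. The HOXA cluster, with all 11 tested genes inside a run, had 2 higher and 1 lower. Its medians against WT were -0.60 in 4EHP-null and -0.52 in GIGYF1/2-null cells. Of the 16 higher HOX calls, 6 lay outside runs. The single lower call, HOXA13, was lost in each fit that left out a library.

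Neuronal genes had 8 higher and 5 lower of 20 (65%), and 2 lower without 4EHP-null replicate 1. NEFM, the medium neurofilament chain, stood at 50.7 and 44.6 CPM in 4EHP-null, 212 and 174 CPM in WT and 299.7 and 223 CPM in GIGYF1/2-null libraries, a difference of 2.45 ± 0.14 (edgeR adjusted p = 2.1e-07). NEFL, the light chain, stood at 36.1 and 36.8 CPM and 109 and 105 CPM in the knockouts. Both are among the genes taken as marks of HEK293T, and both were lower than WT in 4EHP-null and higher than WT in GIGYF1/2-null cells. The synaptotagmins, membrane trafficking proteins, split: SYT13 stood at 1.22 and 1.68 CPM in 4EHP-null and 8.74 and 10.9 CPM in GIGYF1/2-null libraries, and SYT11 at 9.02 and 9.87 CPM and 1.42 and 0.702 CPM.

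Cell surface and matrix genes differed in both directions. Glypicans and syndecans, the cell surface heparan sulfate proteoglycans, had 4 lower and none higher of 10 (40%), led by GPC3 and by GPC6 at 41.9 and 43.8 CPM in 4EHP-null and 18.4 and 19.8 CPM in GIGYF1/2-null libraries, in the chromosome 13 run. Collagens, laminins and other matrix genes had 10 higher and 13 lower of 52 (44.2%), with 6 or 7 higher and 8 to 12 lower without 1 knockout library at a time. SPARC, a collagen-binding matrix protein, stood at 34.6 and 39.3 CPM and 14.4 and 15.3 CPM, and COL3A1 at 4.68 and 5.71 CPM and 0.76 and 0.906 CPM, each lower in GIGYF1/2-null cells with WT between. LOX, which cross-links collagen, was higher by 0.97 ± 0.12. Axon guidance and synaptic adhesion genes had 13 higher and 19 lower of 76 (42.1%). The higher members numbered 7 without GIGYF1/2-null replicate 2 and 6 or 7 without replicate 1 or 2 of 4EHP-null. NCAM1, a neural adhesion molecule, differed by 1.05 ± 0.11 and EPHA3, an ephrin receptor, by -1.59 ± 0.13. The 25 clustered protocadherins tested, all within a run on chromosome 5, had a median of 0.48 and none was called. They share exons, so their counts are not independent of one another.

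Signalling lists ranged from 19.5% to 52.6% called, against 24.4% of all genes. Targets of TGF-beta and BMP had 7 higher and 3 lower of 19 (52.6%), with a median of 0.24, which was 0.11 without GIGYF1/2-null replicate 2. The higher members numbered 4 without 4EHP-null replicate 2. ID2, an inhibitor of helix-loop-helix factors, stood at 153 and 148 CPM in 4EHP-null, 202 and 185 CPM in WT and 249 and 256 CPM in GIGYF1/2-null libraries, and its relative ID3 was higher by 0.81 ± 0.11. None of the 3 lower members was called without 4EHP-null replicate 1 or without GIGYF1/2-null replicate 2, and 1 lower member was called without 4EHP-null replicate 2. Wnt targets had 5 higher and 1 lower of 16 (37.5%), with 3 higher and 2 lower without 4EHP-null replicate 2 or GIGYF1/2-null replicate 2. Among the higher were CCND1 and MYC, at 82.9 and 95.4 CPM and 159 and 157 CPM. Notch genes had 5 higher and 2 lower of 24 (29.2%), with 3 higher and 1 lower without 4EHP-null replicate 1. HES5 (2.12 ± 0.37) and HEY1 (0.47 ± 0.08), both Notch-induced repressors, were higher. Immediate early and ERK feedback genes had 4 higher and 4 lower of 41 (19.5%), with 2 higher without 4EHP-null replicate 2. Targets of p53 had 5 higher and 5 lower of 28 (35.7%), with 2 to 5 higher and 3 or 4 lower without 1 knockout library at a time. Mesenchymal genes had 3 higher and 3 lower of 15 (40%), with 1 to 3 higher and 2 to 5 lower without 1 knockout library at a time. Epithelial genes had 2 higher and 0 lower of 9 (22.2%), with 0 or 1 in each direction when a knockout library was left out. Genes of glycolysis and hypoxia had 4 higher and 8 lower of 30 (40%), with 2 to 4 higher and 2 to 6 lower on leaving out a knockout library.

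Interferon-stimulated genes had 8 higher and 3 lower of 41 (26.8%, near the share of all genes), BST2 among the lower. Without 4EHP-null replicate 1, 5 were higher and 2 lower, and without GIGYF1/2-null replicate 2, 1 was lower. Without a low-count filter, 7 were lower. OAS3, which makes the activator of RNase L, stood at 4.78 and 6.05 CPM in WT, 12.2 and 12.9 CPM in 4EHP-null and 26.5 and 21.9 CPM in GIGYF1/2-null libraries, above WT in both knockouts. IRF7, a transcription factor of the interferon response, stood at 0.183 and 0.114 CPM in 4EHP-null, or 6 and 3 counts, against 1.30 and 1.34 CPM in GIGYF1/2-null libraries, a ratio of 8.66 (95% counting interval 4.36 to 19.6). Zinc finger genes with ZNF symbols had 47 higher and 38 lower of 428, 19.9% against 24.4% of all genes, with 22 to 37 higher and 20 to 44 lower without 1 knockout library at a time. Replication-dependent histones had 3 higher and 2 lower of 31 (16.1%, against 24.4% of all genes). Their median of -1.36 depended on 1 library: it was 0.86 without 4EHP-null replicate 2. HIST1H2AH, a histone H2A gene, stood at 0.581 and 7.96 CPM in 4EHP-null and 0.57 and 1.05 CPM in GIGYF1/2-null libraries, so that replicate 2 of 4EHP-null was the high one. Histone genes have near-identical copies that can share reads.

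Calls were not spread evenly along the chromosomes. Among 12603 genes with a mean of at least 1 on the log2 CPM scale, in chromosome order, the running median of the difference over 25 neighbours reached 0.25 in size in 26 runs of at least 20 genes, 11 higher and 15 lower in GIGYF1/2-null cells. Neighbours were taken from RefSeq's gene table of GRCh38.p14, and adjacent runs can share genes at their ends. The runs were not alike: over the whole run, the median was at least 0.3 in size in 12 of the 26. It was 0.14 on chromosome 9 from FBXO10 to TMEM2. The higher run on chromosome 5 from EIF4EBP3 to YIPF5, which holds the clustered protocadherins, had 0 genes called higher and 2 called lower. Runs held 17.3% of tested genes, of which 48.8% were called, against 19.3% of those outside. Inside them 552 genes were higher and 767 lower, and outside 1236 were higher and 1265 lower, so 2501 of the 3820 calls did not lie in a run. Runs were chosen by the same differences, so these shares are a description.

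A stretch of chromosome 13 from ANKRD20A9P to IRS2 had the lowest median, -0.61 over 210 genes, with 149 lower and 2 higher. Its median against WT was -0.57 in GIGYF1/2-null and 0.04 in 4EHP-null cells, so here GIGYF1/2-null departed from WT. Chromosome 9 from WASH1 to DCAF12 (72 genes, -0.60), chromosome 6 from OSTM1 to PDCD2 (189 genes, -0.41) and chromosome 7 from CDK6 to WDR60 (281 genes, -0.42) had the same placement. On chromosome 10 from TIMM23B to SPRN the median was 0.38 over 356 genes, with 214 higher and 11 lower. Its median against WT was -0.36 in 4EHP-null and 0.02 in GIGYF1/2-null cells, so here 4EHP-null departed. Chromosome 15 from OAZ2 to WASH3P (215 genes, 0.42, 136 higher) and chromosome 12 from UNC119B to ZNF891 (79 genes, -0.31, 42 lower) had that placement too, the latter with 4EHP-null above WT by 0.34. In each of these 7 runs the median had the same sign in replicate 1 of both knockouts and in replicate 2 of both. The same libraries chose the runs, so this agreement was close to fixed in advance and gives no separate support. Footprints had a median of the same sign in all 26 runs. DNA copy number was not measured, and its part in these runs was not tested.

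**Figure D4:**
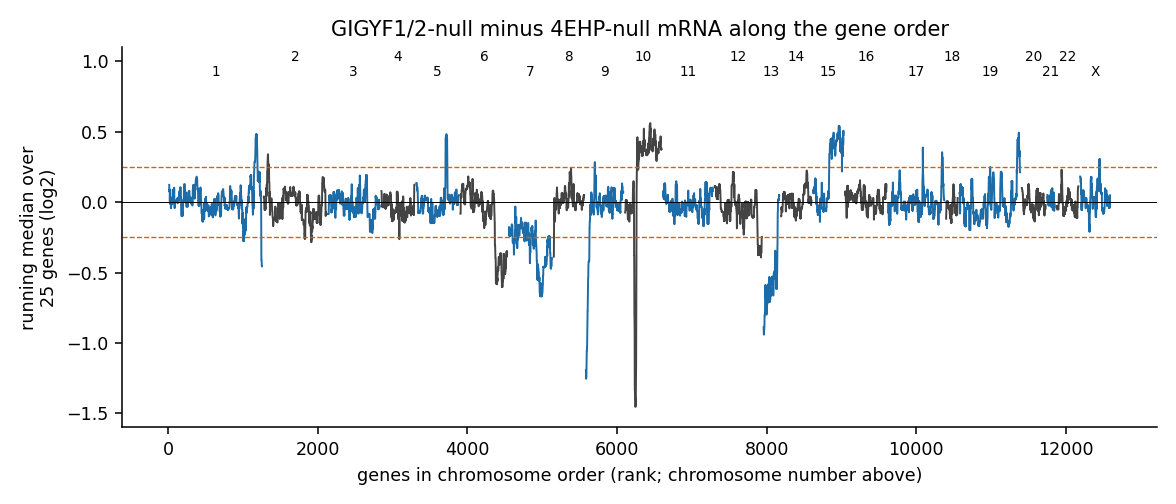
Running median of the mRNA difference (GIGYF1/2-null minus 4EHP-null, log2) over 25 neighbouring genes, with genes in chromosome order and the chromosome number above. Dashed lines mark 0.25 in either direction; most of chromosome 13 lies under the lower line, and large parts of chromosomes 10 and 15 lie above the upper one.

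Ribosome footprints of the same cells, from libraries the mRNA values did not use, gave 1587 calls among 14722 genes (10.8%), 586 higher (3.98%) and 1001 lower (6.8%) in GIGYF1/2-null cells. That count was 431 or 745 without replicate 1 or 2 of 4EHP-null cells and 1043 without GIGYF1/2-null replicate 2. Of the 3820 genes called in mRNA, 3475 were also tested in footprints, and 3307 of these had the same sign. A call in the same direction was made for 1185, which is 34.1% of the mRNA calls tested and 79.8% of the 1485 footprint calls tested in mRNA. Footprint calls made up 11.2% of all genes tested in both assays. In 3 cases the calls had opposite signs. GPC3, for example, differed by -2.51 ± 0.08 in mRNA and -2.62 ± 0.14 in footprints, GLA by 3.16 ± 0.10 and 3.20 ± 0.15, and MCM2 by -1.27 ± 0.10 and -1.81 ± 0.23. Footprints followed 21 of the 23 lower integrated stress response genes tested in them in sign, with 12 called, and all 11 lower synthetases, with 7 called. All 20 lower replication genes were also lower in sign in footprints, with 14 called. In sign, these counts were near that of all mRNA calls tested, 3307 of 3475, of which 34.1% were called in the same direction.

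The difference between assays was itself called for 24 of 13257 genes (0.181%), 0.0453% higher and 0.136% lower in footprints than in mRNA, 21 of them among the mRNA calls. In 19 of those 21 the footprint difference was the smaller in size. A call in mRNA favours genes with large mRNA differences, so this count is not a result about footprints. For COX10-AS1, CTC1 and PABPC1, not called in mRNA, the footprint difference was the larger (-1.40, -1.51 and -0.91). Some of the 21 were near the floor in 4EHP-null mRNA, such as SP140L at 0 and 0 CPM and NRXN3 at 0.306 and 0.305 CPM. Footprints were still counted in 4EHP-null cells where mRNA was 0: SP140L had 3.15 and 3.13 CPM and KCNK2 5.04 and 2.32 CPM. The source of such footprints was not tested. NRXN3 had footprint levels of 6.77 and 7.36 CPM in 4EHP-null, 12.5 and 12.4 CPM in GIGYF1/2-null and 15.6 and 13.5 CPM in WT libraries. Its difference was 0.81 ± 0.19 in footprints against 4.61 ± 0.27 in mRNA (edgeR adjusted p of the assay difference 0.00011), and that of SLC5A5 was 0.71 ± 0.24 against 4.62 ± 0.26. KCNK2, a potassium channel named here because it had the largest assay difference, had no mRNA count in either 4EHP-null library. SMARCA2, a chromatin remodelling ATPase in a chromosome 9 run, differed by -1.45 ± 0.12 in mRNA and -0.15 ± 0.16 in footprints.

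In 2 of the 21 the footprint difference was the larger. GIGYF1 footprints stood at 9.45 and 12.3 CPM in 4EHP-null, 1.70 and 2.74 CPM in GIGYF1/2-null and 8.69 and 6.72 CPM in WT libraries, a difference of -2.25 ± 0.28 against -0.69 ± 0.11 in mRNA (edgeR adjusted p of the assay difference 0.039). DHX36, a helicase of G-quadruplex RNA, stood at 119 and 103 CPM and 30.1 and 25.6 CPM in footprints, against 56.0 and 60.9 CPM and 30.3 and 27.0 CPM in mRNA (edgeR adjusted p of the assay difference 0.033). PABPC1, the main cytoplasmic poly(A)-binding protein, whose processed copies can share reads, was not called in mRNA (0.20 ± 0.09) and differed by -0.91 ± 0.16 in footprints (edgeR adjusted p of the assay difference 0.038). GIGYF2 footprints differed by -0.56 ± 0.22 and were not called (edgeR adjusted p = 0.14). SMARCA2, KCNK2, DHX36, PABPC1, COX10-AS1, CTC1 and SP140L were chosen after their values were seen.

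**Figure D5:**
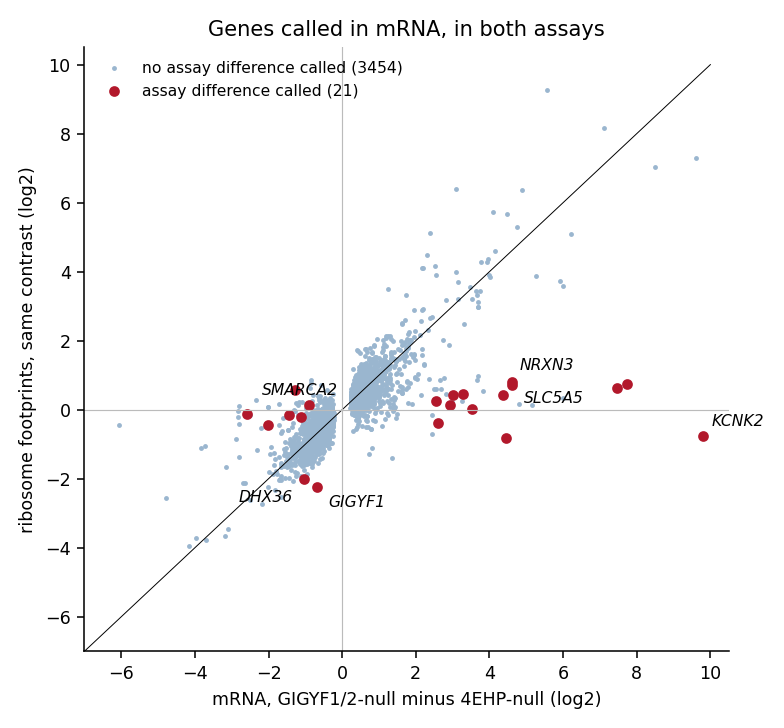
Difference in ribosome footprints against difference in mRNA (both GIGYF1/2-null minus 4EHP-null, log2) for the 3475 genes called in mRNA and tested in both assays, with the line of equal differences. Red points are the 21 genes whose difference between assays was called: NRXN3, SLC5A5 and KCNK2 lie far under the line on the right, and GIGYF1 and DHX36 under it on the left.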

How the data were processed

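The authors deposited raw counts per gene, 1 column per library, for mRNA and for ribosome footprints, with a gene width in bases that was not used. Bowtie2, TopHat2, edgeR and hg19 are named in the submitters' processing notes, while the counting tool, the annotation and the use of strand were not given in the sources used here. Reads of overlapping or near-identical genes may therefore be split or shared. Samples were grouped by their titles. The members and gene lists were chosen with earlier results of these data known.

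Genes passing edgeR's expression filter were fitted over the 6 mRNA libraries of all 3 genotypes, which share 1 estimate of the spread (TMM, quasi-likelihood test, adjusted p under 0.05). The software was edgeR 4.0.16, with DESeq2 1.42.0 and limma 3.58.1 as alternatives, under R 4.3.3. The footprint counts were fitted the same way, and the assay difference as an interaction over all 12 libraries. No replicate number entered these fits. The text names the targeted genes, the 12 genes in each direction with the largest difference and a mean of at least 2 on the log2 CPM scale (knockout libraries not overlapping, non-coding and uncharacterised loci passed over), 3 per list and direction, and 5 per direction among genes opposite against WT, as far as space allows; 1 of these genes is not reported here. In counts simulated for this comparison over 15469 genes, the test recovered 59 of 80 genes changed 1.5-fold, 80 of 80 changed 2-fold and 40 of 40 changed 4-fold, with 13 false calls. The simulation gave all genes a common spread and no replicate effect. It changed only well-counted genes, and far fewer than were called in the data. These figures therefore do not give the recovery or the false calls in the data, least of all for genes with few counts. Alternatives were other scalings, filters, tests and sets of libraries. The authors' comparison tables were not used. Genes were matched by symbol to RefSeq's table for chromosome and neighbours (94.7% matched).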

Additional observations from a re-analysis of the deposited data

How the results depend on the processing

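The 3820 mRNA calls between the knockouts became 1727 (827 higher, 900 lower) when a fold over 1.2 was required with edgeR's glmTreat. Leaving out 1 library gave 2238 to 3756 calls, 973 to 1659 higher and 1265 to 2097 lower. Other settings gave 3449 calls (only the 4 knockout libraries) to 4513 (no low-count filter), with 3498 by DESeq2 and 3787 by limma-voom, and upper-quartile scaling moved the median of all genes to 0.06. The 451 calls over the gene lists became 192 with glmTreat and 261 to 481 without 1 library. The 1587 footprint calls became 2405 without a low-count filter and 431 to 1659 without 1 library. The cause of these shifts was not tested. With the replicate number as a block, mRNA calls numbered 5362 and held all 3820, footprint calls 3291 and assay-difference calls 114 against 24. With this block, cytosolic ribosomal proteins had 46 higher and 4 lower of 84, oxidative phosphorylation 24 higher and 5 lower of 48, and heat shock chaperones 2 higher and 12 lower of 18. The labels do not say that the numbers pair samples. The deviations of same-numbered mRNA libraries correlated at 0.26 between the knockouts, and at 0.20 and 0.45 between each knockout and WT. Of 187 named genes, 121 kept their call in every alternative and 66 lost it in at least 1, most of them under glmTreat (56) or without 4EHP-null replicate 1 (38). Without GIGYF1/2-null replicate 1 the difference of HSPA1A turned to -0.41, and without replicate 2 it was 6.15. Without 4EHP-null replicate 2, HIST1H4E turned to 0.26 and HIST1H2AH to 0.48, against -3.75 and -3.29 without replicate 1. With 2 libraries per genotype, an arm left with 1 library is assumed to vary like the others.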
